A study of Mus musculus with 2 samples.

Results

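Siglec and paired immunoglobulin-like type 2 (Pilr) receptor genes were compared between macrophages lacking TIPE1 and control macrophages. They were taken by symbol: Siglece, Siglec1, Siglecf, Cd22, Cd33, Pilra, Pilrb1 and Pilrb2, which are 8 of the 46095 genes in the table. They were chosen by name, with their KO over WT ratios in these same libraries known, so those ratios describe the genes and do not test them. The data came from RNA sequencing of macrophages grown from C57BL/6 marrow for 5 days in 100 ng/ml M-CSF, the growth factor that turns marrow progenitors into macrophages. The KO library is labelled TIPE1-/-, and the series describes these mice as carrying LyzM-Cre, a Cre recombinase made from the lysozyme locus of myeloid cells, with floxed Tipe1 alleles. The WT library is labelled wild type, and the series describes its mice as floxed for Tipe1 without the Cre. The sources used here give neither the age of the mice nor how many stand behind a library. With 1 library for KO and 1 for WT, differences lack a replicate check, and no p-value was computed.

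Siglecs are cell surface lectins that bind sialic acid, the sugar that caps many glycans. Most carry an inhibitory tyrosine motif (ITIM) in the cytoplasmic tail, which recruits the phosphatases SHP-1 and SHP-2 and restrains activating receptors, whereas Siglec-1 (CD169) mainly serves adhesion and uptake. PILR alpha and PILR beta are a pair with similar outer domains and opposite signalling: PILR alpha has ITIMs, and PILR beta couples to the activating adaptor DAP12. Both bind glycosylated proteins.

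The libraries held 15815956 counted reads for KO and 11782664 for WT, and values are CPM, read counts scaled to a library of 1000000 reads, with library sizes set by TMM, a method that takes them from the bulk of the genes. Intervals in parentheses are 95% Clopper-Pearson intervals of the split of a gene's reads between the libraries and cover counting error only. Among the 12495 genes that averaged 1 CPM or more over the libraries, called tested below, a difference was counted as higher or lower if CPM stood at least 1.5-fold apart and the interval excluded 1. Tnfaip8l1, which encodes TIPE1, had 3 reads in KO and 21 in WT, a ratio of 0.112 (0.0214 to 0.375). Its mean of 0.967 CPM left it outside the tested genes. Lyz2, the gene at the Cre locus, had 8028 CPM in KO and 14958 CPM in WT. By the 1.5-fold rule 6.47% of all tested genes were higher and 7.23% lower. Of 17 tested macrophage markers 1 was higher, 2 were lower and 14 were neither. Csf1r, the M-CSF receptor gene, stood at 2414 CPM in KO and 2646 CPM in WT. The higher one was Adgre1, which encodes F4/80, at 2554 CPM in KO and 1064 CPM in WT. Of 17 tested stromal markers 16 were lower and 0 higher, with a summed level of 189 CPM in KO and 2105 CPM in WT and with Tagln listed at 0 in both. The part of these other cells in the results below was not tested, and in bulk RNA fewer cells of a type cannot be told apart from less RNA per cell.

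Siglece and the whole Pilr cluster were higher in the KO library, Siglec1 was higher by less than 1.5-fold, and Cd22, Cd33 and Siglecf differed by less than 1.5-fold, with a wide interval for Siglecf. All 8 genes passed the limit of 1 CPM. Of them 4 were counted as higher and 0 as lower, where 6.47% of all tested genes were higher and 7.23% lower by the same measure. The median log2 ratio of the 8 genes, taken after adding 0.5 CPM to both values, was 0.88, against 0.01 over all tested genes. The genes were chosen with these ratios in view, so nothing is read from that contrast. The same 4 genes were also at least 2-fold higher, which 2.59% of tested genes were, while 4.78% were at least 2-fold lower. Among genes with a mean of 10 CPM or more, 4.92% were higher and 2.66% lower by 1.5-fold.

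**Figure D1:**
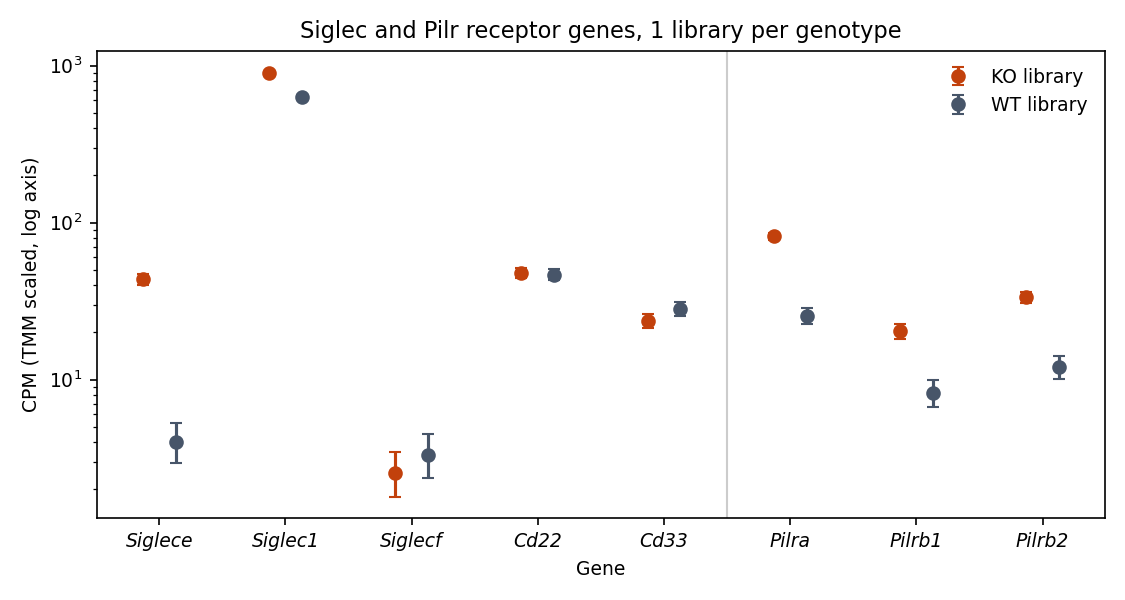
Level of each receptor gene in CPM on a log axis, with the KO library left of the WT library for each gene. Points are single libraries and bars are 95% Poisson counting intervals. Siglece and the 3 Pilr genes lie higher in KO with bars apart, and the bars of Cd22, Cd33 and Siglecf overlap between the libraries.

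Siglece showed the largest ratio of the 8 genes. It encodes Siglec-E, an ITIM-bearing receptor of mouse neutrophils, monocytes and macrophages that dampens their activation. It had 670 reads in KO and 48 in WT, which is 43.4 CPM against 3.97 CPM. The ratio of KO over WT was 10.9 (8.15 to 15.0), and 13 of the 12495 tested genes had a higher ratio. By the log2 ratio after adding 0.5 CPM, which shrinks the ratios of low genes, it ranked 9th. Because the WT level rests on 48 reads, the counting interval of this ratio is the widest among the 4 higher genes. No stretch of 50 bases of the Siglece transcript occurred in a transcript of any other gene of GENCODE M21, by exact match on either strand.

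Siglece lies on the minus strand of chromosome 7 (GRCm38, chr7:43651070-43660161, protein-coding) in a cluster of CD33-related Siglec genes. The 300 bases around its RefSeq start (GRCm38.p6, chr7:43660112-43660411, minus strand, 250 bases before the start and 50 after) are shown because Siglece has the largest ratio. Capitals mark the letters GAGGAA, a core that the myeloid factor PU.1 can bind, or their reverse complement.

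Siglece: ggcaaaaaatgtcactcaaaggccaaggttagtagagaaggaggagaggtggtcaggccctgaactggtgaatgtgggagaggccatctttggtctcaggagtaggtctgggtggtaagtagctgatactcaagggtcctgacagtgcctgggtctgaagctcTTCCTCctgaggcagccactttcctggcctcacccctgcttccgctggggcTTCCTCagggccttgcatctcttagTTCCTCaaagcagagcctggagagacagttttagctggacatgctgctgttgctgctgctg

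The core occurred 3 times in this window, each time as its reverse complement. Of 32851 RefSeq promoter windows of the same length 28.3% held it at least once on either strand, and 0.685% held it 3 times or more. Among the 8 receptor genes a window was at hand for 7, all but Siglec1, and 4 of those held the core: Siglece, Siglecf, Cd33 and Pilra. The letter pattern AAANNGAAA of interferon response elements was absent from the Siglece window, as was the NF-kB consensus, which 4.51% of all windows held. A match in letters does not show binding.

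The cluster holds Siglecf, Siglecg, Cd33 and Siglece within 308.8 kb. Siglece was the one counted as higher. Cd33 (chr7:43524216-43544428, minus strand) had 364 reads in KO and 340 in WT, or 23.6 CPM against 28.2 CPM. That is a ratio of 0.838 (0.721 to 0.974), a difference outside counting error but under 1.5-fold. Siglecf (chr7:43351341-43359531, plus strand), which encodes a receptor best known from eosinophils and alveolar macrophages, had 39 reads in KO and 40 in WT. Its levels of 2.53 CPM and 3.31 CPM gave a ratio of 0.763 (0.478 to 1.22), so no difference was detectable at this depth. Siglecg, known from B cells and not one of the 8 genes, had 1 read in KO and 19 in WT, 24.3-fold lower (3.86 to 1008), with a mean under 1 CPM.

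Read counts of Siglece and Cd33 stood in opposite order in the libraries. Siglece made up 64.8% (61.8 to 67.7) of the reads of this pair in KO and 12.4% (9.26 to 16.1) in WT, with exact binomial intervals. The ratio of the 2 genes thus differed 13.01-fold (9.32 to 18.5, exact conditional interval of the odds ratio) between the libraries, a measure that does not depend on library scaling. Coding sequences of this cluster were 65.1% to 73.5% identical over the aligned bases, and under 1% of the 50-base stretches of Siglecf or Cd33 transcripts occurred in another gene.

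Few genes near Siglece could be tested. Of 8 other genes of the table whose lowest RefSeq coordinate lay within 100 kb of that of Siglece, 3 were tested and 0 were counted as higher or lower. At the all-gene shares of 6.47% higher and 7.23% lower, so few genes say little about the locus. Ctu1, a tRNA thiolation enzyme gene, was nearest to the mark with 11.5 CPM in KO and 7.70 CPM in WT, a ratio of 1.498 (1.16 to 1.95) that fell just short of 1.5. Zfp719 and Zfp658, zinc finger genes, had ratios of 1.32 (1.02 to 1.72) and 0.970 (0.694 to 1.36).

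**Figure D2:**
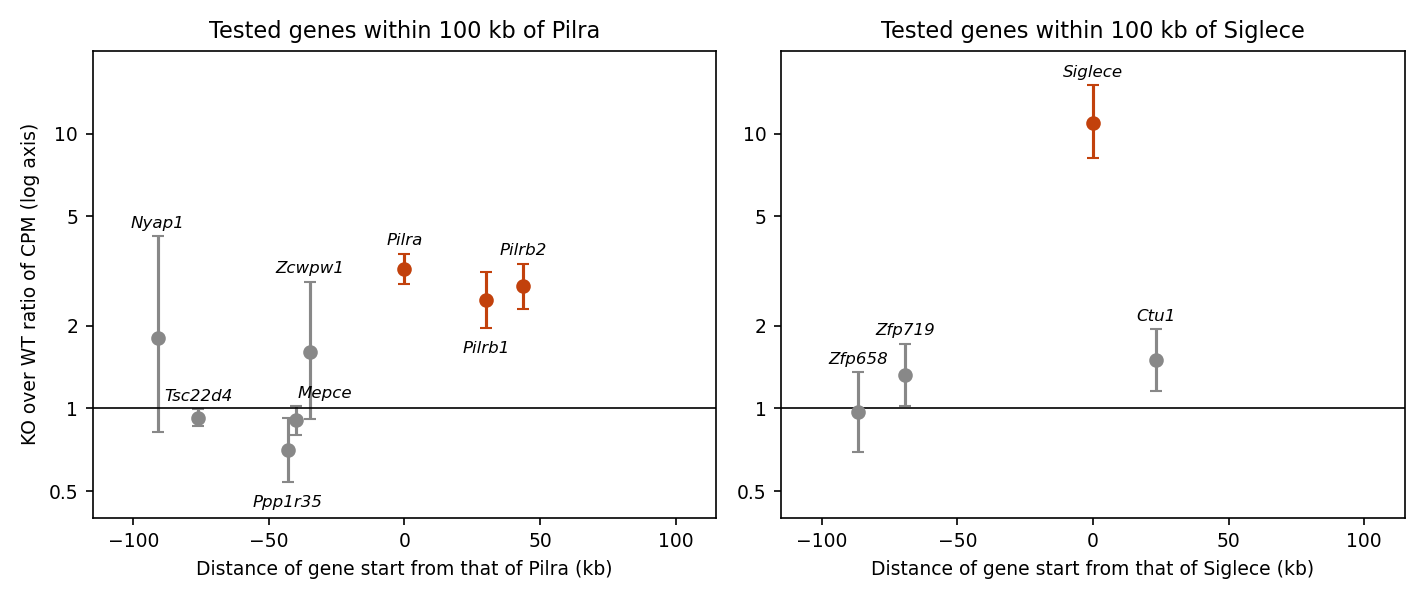
KO over WT ratio of CPM on a log axis for tested genes within 100 kb of Pilra (left) and of Siglece (right), against the distance of each gene's lowest coordinate in kb. Bars are 95% counting intervals and coloured points are receptor genes. Pilra, Pilrb1 and Pilrb2 sit between 2.47 and 3.22, and none of the other genes shown was counted as higher or lower.

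All 3 Pilr genes were higher in KO macrophages. Pilra, the inhibitory member, had 1261 reads in KO and 307 in WT, or 81.7 CPM against 25.4 CPM, a ratio of 3.22 (2.84 to 3.65). Pilrb1, an activating member, had 313 reads in KO and 99 in WT, or 20.3 CPM against 8.20 CPM, a ratio of 2.47 (1.97 to 3.13). Pilrb2, its near copy, had 515 reads in KO and 145 in WT, or 33.4 CPM against 12.0 CPM, a ratio of 2.78 (2.31 to 3.37). The intervals of the 3 ratios overlap, and Pilra was compared directly only with the summed Pilrb reads, so no order of the 3 is read.

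No difference in the balance between the activating and the inhibitory Pilr genes was resolved. Pilrb1 and Pilrb2 together gave 828 reads in KO and 244 in WT, a ratio of 2.66 (2.30 to 3.08). They made up 39.6% (37.5 to 41.8) of Pilr reads in KO and 44.3% (40.1 to 48.5) in WT. The ratio of activating to inhibitory reads in KO was 0.826 of that in WT (0.681 to 1.004), an interval that includes no change. Pilrb1 held 37.8% (34.5 to 41.2) of the reads of both Pilrb genes in KO and 40.6% (34.4 to 47.0) in WT.

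Close copies limit how far the Pilr reads can be split between the genes. Over aligned bases the coding sequences of Pilrb1 and Pilrb2 were 93.0% identical, and that of Pilra was 87.2% identical to Pilrb1 and 87.3% to Pilrb2. The coding length of Pilra, 906 bases, exceeds the 672 and 675 bases of Pilrb1 and Pilrb2. Of 50-base stretches 28.1% of those of Pilrb1 also occurred in Pilrb2, while 4.08% of those of Pilra occurred in Pilrb1 and 2.90% in Pilrb2. Each Pilr gene also has an antisense partner: Pilra shares 468 exonic bases with Zcwpw1, Pilrb1 97 with Gm36551 and Pilrb2 103 with Gm43495. Without a stated strand setting the reads of such partners cannot be told apart, although Zcwpw1 had 41 reads in KO and 20 in WT and Gm36551 12 and 8, few beside those of the Pilr genes. Summed over all 3 genes, which no exchange of reads among them can change, the Pilr cluster had 2089 reads in KO and 551 in WT, a ratio of 2.97 (2.70 to 3.27).

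The Pilr genes lie side by side on the minus strand of chromosome 5 within 49.9 kb, with Pilra at chr5:137821952-137836281, Pilrb1 at chr5:137852147-137858106 and Pilrb2 at chr5:137865827-137871815 (GRCm38). Their RefSeq promoter windows (GRCm38.p6, minus strand) are shown because the genes moved together and the windows are near copies. They run at chr5:137836229-137836528 for Pilra, chr5:137858000-137858299 for Pilrb1 and chr5:137871709-137872008 for Pilrb2. Capitals mark the interferon response letters AAANNGAAA or their reverse complement, and in Pilra also GAGGAA.

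Pilra: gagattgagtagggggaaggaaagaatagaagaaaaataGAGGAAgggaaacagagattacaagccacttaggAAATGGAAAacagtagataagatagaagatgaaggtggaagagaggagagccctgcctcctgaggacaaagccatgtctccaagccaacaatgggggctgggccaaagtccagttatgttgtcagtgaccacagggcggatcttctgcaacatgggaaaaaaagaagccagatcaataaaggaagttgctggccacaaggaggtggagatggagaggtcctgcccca
Pilrb1: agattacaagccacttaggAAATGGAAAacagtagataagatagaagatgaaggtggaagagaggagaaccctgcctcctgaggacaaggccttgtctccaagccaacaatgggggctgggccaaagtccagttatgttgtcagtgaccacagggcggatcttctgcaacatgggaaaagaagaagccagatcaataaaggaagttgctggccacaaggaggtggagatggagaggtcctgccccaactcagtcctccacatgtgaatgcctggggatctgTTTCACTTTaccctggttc
Pilrb2: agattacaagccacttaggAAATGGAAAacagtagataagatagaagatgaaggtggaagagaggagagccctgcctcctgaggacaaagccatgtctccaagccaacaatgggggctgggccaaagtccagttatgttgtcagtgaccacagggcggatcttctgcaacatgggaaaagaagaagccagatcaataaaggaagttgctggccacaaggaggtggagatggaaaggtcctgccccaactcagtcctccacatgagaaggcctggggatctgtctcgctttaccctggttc

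Over 300 aligned bases the Pilrb1 and Pilrb2 windows were 97.3% identical. The annotated start of Pilra is offset by 54 bases from that of the Pilrb genes, and over the 246 bases that align its window was 98.4% identical to that of Pilrb1 and 99.2% to that of Pilrb2. The same stretch aaatggaaa, in capitals in all 3 windows, matches the interferon response letters, and Pilrb1 has a further match among its first 50 transcribed bases. Of all promoter windows 10.6% held this pattern. The PU.1 core was in the Pilra window alone of the 3, at a position upstream of where the Pilrb windows begin. In contrast to these copies, the Siglece window was 56.7% identical to that of Pilra over aligned bases.

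The genes beside the Pilr cluster were also few. Of 8 other genes of the table within 100 kb of Pilra 5 were tested, and 0 of them were higher or lower by the rule, a count from which, at the same all-gene shares, nothing is read. Ppp1r35, a protein phosphatase subunit gene, had 108 reads in KO and 120 in WT, a ratio of 0.705 (0.538 to 0.921). Mepce, which encodes the 7SK capping enzyme, had 39.1 CPM in KO and 43.2 CPM in WT, a ratio of 0.904 (0.803 to 1.02). Tsc22d4, a leucine zipper gene, stood at 107.8 CPM in KO and 116.7 CPM in WT. Zcwpw1, the antisense neighbour, had a ratio of 1.60 (0.919 to 2.89), which its few reads leave unresolved.

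**Figure D3:**
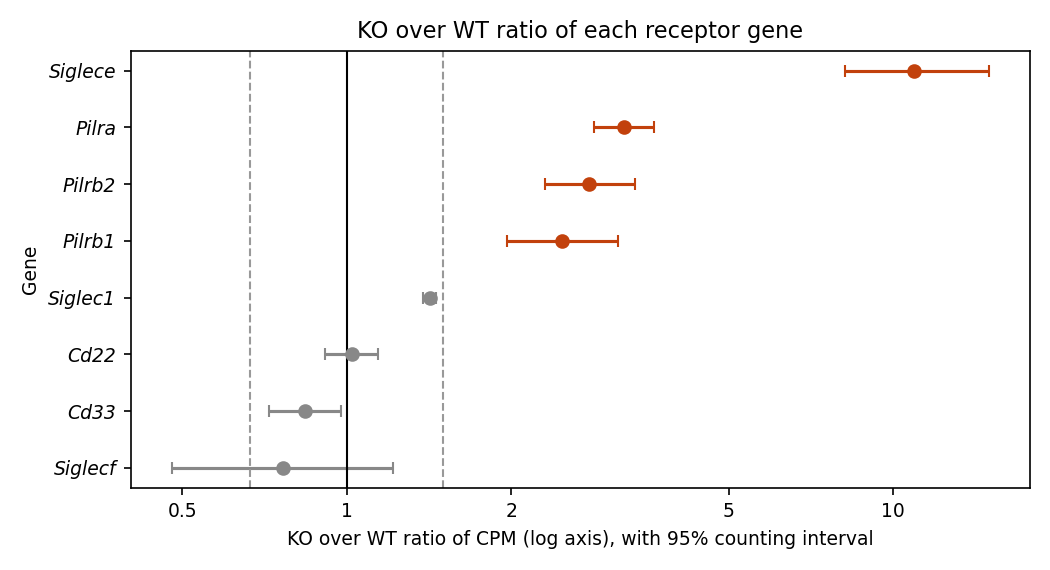
KO over WT ratio of CPM on a log axis for the 8 receptor genes, with 95% counting intervals; dashed lines mark 1.5-fold in either direction. Siglece stands at 10.9, the Pilr genes between 2.47 and 3.22, and Siglec1 at 1.42, inside the dashed lines.

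Siglec1 was by far the most abundant of the 8 genes in both libraries. It encodes CD169, the sialoadhesin of tissue macrophages, and is known as an interferon-inducible gene. It had 13812 reads in KO and 7625 in WT, or 895 CPM against 631 CPM, a ratio of 1.42 (1.38 to 1.46). With so many reads the interval is narrow and excludes 1, which it did on the higher side for 22.8% of tested genes, but the ratio stayed below 1.5-fold. Siglec1 made up 88.4% (87.9 to 88.9) of the reads of the 5 Siglec genes in KO and 88.5% (87.8 to 89.2) in WT. Siglece took 4.29% (3.98 to 4.62) of those reads in KO and 0.557% (0.411 to 0.738) in WT. Summed reads of the 5 Siglec genes, 15618 in KO and 8615 in WT, therefore followed Siglec1 with a ratio of 1.42 (1.38 to 1.46). Of 2 other tested genes within 100 kb of Siglec1 (chr2:131069220-131086765, minus strand) Adam33, a metalloprotease gene, was counted as higher, with 56 reads in KO and 26 in WT, a ratio of 1.69 (1.04 to 2.80). From 2 genes, beside the all-gene share of 6.47% higher, nothing is read about the locus.

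Cd22 was level between the libraries. It encodes the inhibitory co-receptor of B cells, and it had 733 reads in KO and 562 in WT, or 47.5 CPM against 46.5 CPM, a ratio of 1.02 (0.913 to 1.14) that became 0.972 with total counts as library sizes. Of 6 other tested B cell markers 5 were lower and 0 higher, where 7.23% of all tested genes were lower and 6.47% higher. Several reached a mean of 1 CPM only through the WT library, among them Ms4a1 at 0.130 CPM in KO and 1.90 CPM in WT. That limit lets in such low genes only where they are uneven, so nothing is read from this count. Ms4a1, which encodes CD20, had 2 reads in KO and 23 in WT, and Cd79a, a B cell receptor chain, 10 and 40. Ighm and Igkc, immunoglobulin chain genes, were listed at 0 in both libraries. Blnk, an adaptor also used outside B cells, stood at 127.9 CPM in KO and 113.8 CPM in WT, and made up most of the summed B cell level of 130.5 and 128.6 CPM. The Cd22 gene (chr7:30865402-30880342, minus strand) shares 463 exonic bases with an antisense gene, Gm29439. Of 3 tested genes within 100 kb of Cd22 1 was higher and 1 lower. Beside all-gene shares of 6.47% higher and 7.23% lower, so few genes say little about the locus. Mag, a Siglec gene of myelin, had 71 reads in KO and 24 in WT, a ratio of 2.32 (1.44 to 3.85), at 4.602 and 1.987 CPM. Lsr, a lipoprotein receptor gene, had 94 reads in KO and 182 in WT, a ratio of 0.404 (0.312 to 0.521).

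Siglecf was set beside markers of eosinophils and alveolar macrophages. Over all tested genes 6.47% were higher and 7.23% lower. Of 3 tested eosinophil genes Prg2, a granule protein gene, was lower, with 16 reads in KO and 27 in WT, and Ccr3, the eotaxin receptor gene, stood at 7.39 and 6.95 CPM. Epx, the eosinophil peroxidase gene, had 0 reads in KO and 2 in WT. Of 13 alveolar macrophage markers 6 were listed at 0 in both libraries, among them Car4 and Krt79, while 4 of the 7 tested were higher: Marco, Itgax, Lpl and Atp6v0d2. Marco, a scavenger receptor gene, stood at 223 CPM in KO and 7.62 CPM in WT, and Lpl, lipoprotein lipase, at 3676 and 1488 CPM. The other 3 were neither: Fabp4 with a ratio of 1.05 (0.987 to 1.11), Pparg with 1.18 (0.996 to 1.39), and Chil3 at 92.7 CPM in KO and 135 CPM in WT, a ratio of 0.687 that was counted as lower at 0.654 with total counts. The summed alveolar list was 4809 CPM in KO and 2147 CPM in WT, most of it from Lpl. Siglech, a marker of plasmacytoid dendritic cells, had 0 reads in KO and 1 in WT, and Siglec15, an osteoclast gene, had 4 and 5.

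Neutrophil and monocyte markers were set beside Siglece and the Pilr genes, which those cells can also express. The all-gene shares were 6.47% higher and 7.23% lower. Of 14 tested neutrophil markers 5 were lower and 0 higher, with sums of 900.0 CPM in KO and 1203 CPM in WT. S100a9, an abundant neutrophil protein gene, stood at 193.7 and 266 CPM. Of 10 tested monocyte markers 5 were lower and 1 higher, with sums of 480 CPM in KO and 1185 CPM in WT. F13a1, a coagulation factor subunit gene, stood at 138.6 and 413 CPM, and the higher one, Ms4a4c, at 57.2 CPM in KO and 32.9 CPM in WT, a ratio of 1.74 (1.54 to 1.97). Siglece and the Pilr genes were thus higher in the library in which these marker sums were lower, and the part of cell mixture in their ratios was not tested.

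**Figure D4:**
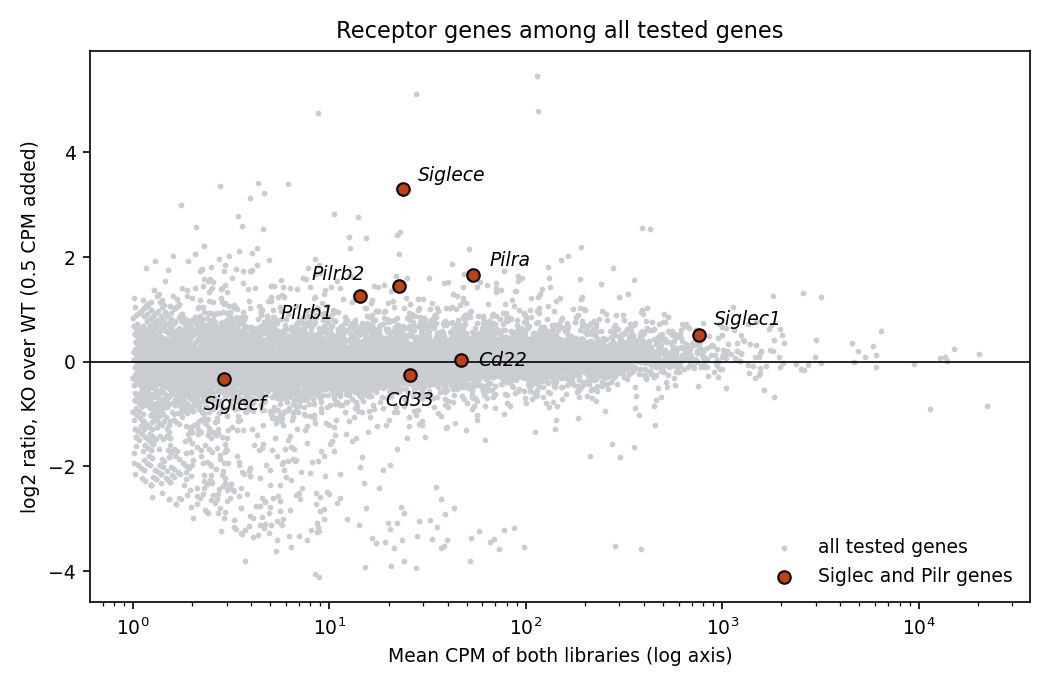
log2 ratio of KO over WT (0.5 CPM added) against the mean CPM of both libraries on a log axis, for all 12495 tested genes in grey and the 8 receptor genes in colour. Siglece at 3.30 and the Pilr genes at 1.26 to 1.67 lie above the bulk of genes of like level, and Cd22, Cd33 and Siglecf lie within it.

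Levels of different genes compare only per length, so CPM was divided by the summed exon length of the GENCODE M21 basic transcripts of each gene. In KO the order was Siglec1 (125.3 CPM per kb), Pilra (28.2), Siglece (23.5), Pilrb2 (18.5), Pilrb1 (11.2), Cd22 (9.72), Cd33 (3.88) and Siglecf (0.927). In WT it was Siglec1 (88.4 CPM per kb), Cd22 (9.52), Pilra (8.78), Pilrb2 (6.64), Cd33 (4.63), Pilrb1 (4.53), Siglece (2.15) and Siglecf (1.21). Siglece was thus 3rd of 8 in KO and stood with Siglecf at the foot of the order in WT. The 95% Poisson intervals overlap between Pilrb1 and Cd22 in KO. In WT they overlap between Cd22 and Pilra, between Cd33 and Pilrb1 and between Siglece and Siglecf. These pairs were not compared directly, so no order within them is read. With the length of the principal transcript instead, an alternative chosen after seeing the data, Cd33 stood at 13.2 CPM per kb in KO and 15.7 CPM per kb in WT, 6th and 2nd in the order, and Pilrb1 at 19.9 and 8.04 CPM per kb. Siglec1 stayed first in both libraries and Siglece 3rd in KO. In WT Siglece and Siglecf stayed at the foot of the order.

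The genes whose log2 ratio lay closest to that of Siglece, among those with a mean of at least 10 CPM, were Slamf9, Gm41885, Cd55, Acod1 and Mmp9, at distances of 0.03 to 0.76 on the log2 scale. Slamf9, a SLAM family receptor gene, stood at 41.0 CPM in KO and 3.64 CPM in WT, a ratio of 11.2 (8.28 to 15.6). Cd55, a complement regulator gene, had 24.9 CPM in KO and 3.23 CPM in WT, a ratio of 7.71 (5.54 to 11.0). For Siglec1 they were Rgs18, Oasl2, Fdft1, Zbtb37 and Vmn2r-ps16, at distances of up to 0.000448 on that scale. Oasl2, an interferon-induced gene, stood at 563 CPM in KO and 397 CPM in WT. With 2 libraries a pattern is a single ratio, so such likeness carries little information.

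Related genes were described from lists chosen with earlier results of these data known. The lists cover other Siglecs, sialic acid enzymes, ligands, signalling partners, and other ITIM and DAP12 receptors. Across 11 lists 67 of 87 genes were tested, of which 10 were higher and 5 lower, or 14.9% and 7.46%, beside 6.47% and 7.23% of all tested genes. With total counts as library sizes 5 of these calls changed, and the split became 7 higher and 7 lower. The all-gene shares were not computed with that scaling, so no excess of higher genes is read from these counts.

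Genes of sialic acid enzymes formed short lists. Beside the all-gene shares of 6.47% higher and 7.23% lower, nothing is read from their counts. Of 5 tested synthesis genes 1 was lower and 0 higher. The lower one, Cmah, converts Neu5Ac to Neu5Gc, the form that mouse CD22 prefers. It had 10 reads in KO and 22 in WT, a ratio of 0.356 (0.150 to 0.783). At 0.648 CPM in KO and 1.82 CPM in WT, it reached a mean of 1 CPM only through the WT library. Cmas, which activates sialic acid to its CMP sugar, stood at 59.5 CPM in KO and 56.4 CPM in WT, and Gne, the entry enzyme, at 13.9 and 17.6 CPM. Of 10 tested sialyltransferases 2 were higher and 0 lower, with a median log2 ratio of 0.07. St3gal5, which makes the ganglioside GM3, stood at 37.6 CPM in KO and 12.1 CPM in WT, a ratio of 3.11 (2.59 to 3.75). St3gal1, which caps O-glycans with alpha2,3-linked sialic acid, stood at 282 and 163.5 CPM, a ratio of 1.73 (1.64 to 1.82). St6gal1, which makes the alpha2,6-linked ligands that CD22 binds, stood at 52.0 and 71.8 CPM, a ratio of 0.724 (0.657 to 0.798). Of 6 tested genes for removal of sialic acid 0 were higher or lower, and the sialidase gene Neu1 stood at 6.55 CPM in KO and 7.87 CPM in WT.

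Ligand genes went both ways. Spn, which encodes CD43, a sialylated partner of Siglec-1, stood at 33.4 CPM in KO and 10.4 CPM in WT, a ratio of 3.20 (2.63 to 3.92). Cd24a, whose product binds Siglec-G, was lower at 11.9 CPM in KO and 18.0 CPM in WT, a ratio of 0.664 (0.542 to 0.812). Ptprc, which encodes CD45, a CD22 ligand, stood at 853.5 and 655 CPM, a ratio of 1.30 (1.27 to 1.34). Of 4 tested PILR ligand genes 2 were lower and 0 higher, beside 7.23% and 6.47% of all tested genes. So few genes say little about the list. Colec12, a scavenger collectin gene, stood at 54.8 CPM in KO and 83.9 CPM in WT, a ratio of 0.653 (0.595 to 0.716), and Pianp, which encodes a PILR alpha-associated neural protein, at 8.88 and 15.5 CPM, a ratio of 0.574 (0.457 to 0.719). Cd99, the CD99 gene, had 7.45 CPM in KO and 5.38 CPM in WT, a ratio of 1.38 (1.01 to 1.91).

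Signalling partners of these receptors differed by less than Siglece or the Pilr genes, which were chosen with their ratios known. Tyrobp, which encodes DAP12, the adaptor of PILR beta, stood at 691 CPM in KO and 605 CPM in WT, a ratio of 1.14 (1.11 to 1.18). Ptpn6, which encodes SHP-1, stood at 513 and 336 CPM, a ratio of 1.53 (1.47 to 1.58) that became 1.45 with total counts and was then not counted. Ptpn11, which encodes SHP-2, had a ratio of 1.20 (1.12 to 1.28), and Inpp5d, which encodes the lipid phosphatase SHIP-1, one of 0.849 (0.814 to 0.884). Of 9 tested kinases and effectors 2 were higher and 0 lower, beside 6.47% and 7.23% of all tested genes. Their median log2 ratio was 0.44. Src stood at 33.2 CPM in KO and 20.3 CPM in WT, a ratio of 1.64 (1.40 to 1.92). Syk, the kinase that ITAM adaptors recruit, stood at 882 and 650 CPM.

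Other ITIM receptors and other DAP12 partners stayed closer to their WT levels than Siglece or Pilra. Of 14 tested ITIM receptor genes 3 were higher, 1 was lower and 10 were neither, with a median log2 ratio of 0.39. Clec4a2, a C-type lectin gene, stood at 196 CPM in KO and 110.2 CPM in WT, a ratio of 1.78 (1.67 to 1.90), and Lair1, a collagen receptor gene, at 202 and 121.5 CPM. Cd72 had a ratio of 1.55 (1.47 to 1.63), which became 1.48 with total counts. Cd300a was lower at 116.3 CPM in KO and 190.9 CPM in WT, a ratio of 0.609 (0.572 to 0.648), and Fcgr2b, an inhibitory Fc receptor gene, had a ratio of 0.699, counted as lower at 0.665 with total counts. Of 8 tested DAP12 receptor genes 0 were higher or lower. Beside all-gene shares of 6.47% higher and 7.23% lower, nothing is read from counts over so few genes. Trem2 stood at 567 CPM in KO and 594 CPM in WT. Sirpb1b had a ratio of 0.677, counted as lower at 0.644 with total counts. The highest ratio among these 22 receptor genes was the 1.78 of Clec4a2, below those of Siglece and the Pilr genes. It lay above those of Siglec1 (1.42), Cd22 (1.02), Cd33 (0.838) and Siglecf (0.763). The 8 genes were chosen with their ratios known, so nothing is read from this comparison.

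**Figure D5:**
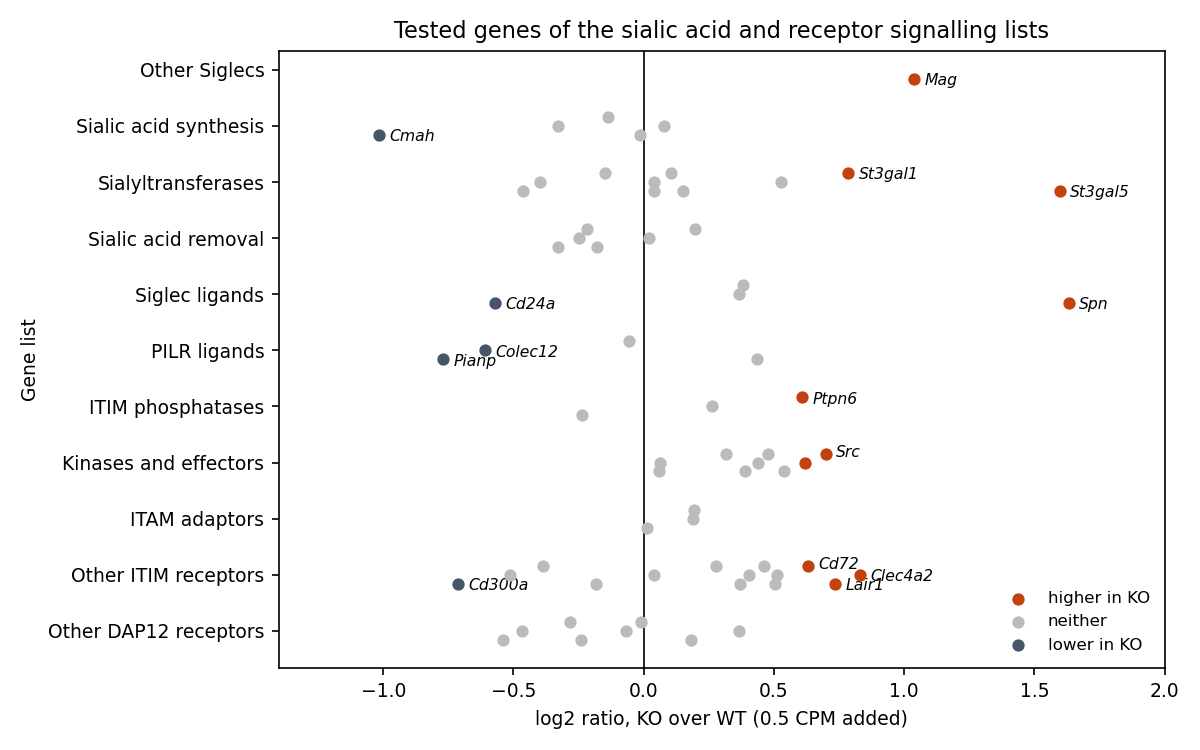
log2 ratio of KO over WT (0.5 CPM added) for each tested gene of the 11 related lists, 1 point per gene with a small vertical offset for legibility. Coloured points were counted as higher or lower, and most of them are named; St3gal5 at 1.60 and Spn at 1.63 lie farthest to the right and Cmah at -1.02 farthest to the left.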

How the data were processed

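Raw counts per gene symbol were deposited by the authors in 1 table, a column for KO and a column for WT, per the file headers. The submitters' processing notes name the aligner HISAT2 and the build GRCm38. Counter, annotation and strand setting: not given in the sources used here. Effective library sizes came from TMM (edgeR 4.0.16, R 4.3.3), ratios and exact intervals from scipy 1.17.1, and alternative size factors from DESeq2 1.42.0. A count of 3 reads corresponds to 0.194 CPM in KO and 0.248 CPM in WT. Intervals cover counting error only. PCR reads lacking molecular identifiers are not independent, so the intervals may be too narrow even for that error. The ratio, interval and call were tried on simulated pairs of libraries with Poisson counts. Those pairs held no variation between animals or cultures, so the trial covers counting error only. With 1 library per genotype no model has residual degrees of freedom. Gene models and transcripts came from GENCODE M21 (GRCm38) and promoter windows from RefSeq (GRCm38.p6), with 7 of 8 genes matched. Protein sequences were not analysed here. The members, lists and named genes were chosen with earlier results of these data known. Named genes were the 8 receptors, Tnfaip8l1, Lyz2, list genes that were counted, up to 4 further genes per list and 4 markers per cell type by mean CPM, the 5 genes nearest in log2 ratio to Siglece and to Siglec1, and genes within 100 kb. Genes named beyond this rule, such as Gne and Neu1, were chosen after their values were seen. Some genes that the lists count are not reported here by name.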

Additional observations from a re-analysis of the deposited data

How the results depend on the processing

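With total counts in place of TMM sizes the Siglec1 ratio became 1.35 (1.31 to 1.39). All other ratios of the 8 genes stayed inside their counting intervals with total counts, with DESeq2 size factors and with TMM computed without stromal genes and genes at least 4-fold apart. The count of 4 higher and 0 lower receptor genes was the same under these scalings, at 2-fold, without a filter and among genes averaging 10 CPM or more. With 2 CPM added in place of 0.5 the log2 ratio of Siglece fell from 3.30 to 2.93, below its counting interval. Replacing each Pilr ratio by that of the summed Pilr or Pilrb reads left it inside its interval. Over the related lists the total of 10 higher and 5 lower genes became 7 and 7 with total counts, 10 and 6 without a filter and 9 and 4 at 10 CPM. Siglece in WT rests on 48 reads and Siglecf on 39 and 40, which limits both ratios. No paired analysis was possible because KO and WT are 1 library each, without a test.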
